A study of Mus musculus with 6 samples.

Results

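The lymphoid genes described here were Cd28, Cd226, Cd96, Nkg7, Il7r, Blnk, Ebf1 and Cd79b, 8 of the 18194 genes that the arrays measured with a probe set (a group of short oligonucleotides on the array) naming 1 gene. They were chosen by name, with the differences between the study's groups in these same data already known, so those differences are given as a description with no test. The platform annotation assigned 14 of the 45101 probe sets to 1 of the 8 genes and to no other gene, and all 14 are accounted for below. Expression was measured on 6 arrays of mouse megakaryocytes, the platelet-forming cells, differentiated in culture from fetal liver cells with thrombopoietin and purified through a bovine serum albumin gradient. The control group held 3 arrays, with FOG1+/- as the genotype of replicates 1 and 2 and FOG1+/+ as that of replicate 3. The other 3 arrays carried the label FOG1-/- ki/ki, called FOG1 ki/ki here, and the labels do not say what the knocked-in allele changes in FOG1. All cultures came from mice of a mixed C57BL/6xSv129 background. The labels call the arrays biological replicates without naming animals, litters or culture days, so p-values measure only the spread between these cultures, and whether cells were pooled is not given.

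FOG1, the product of Zfpm1, binds GATA factors and acts with them in the precursors of megakaryocytes and red cells. Lymphocytes develop from other precursors, in the fetal liver as well as in the bone marrow and thymus. Their identity rests on antigen receptors, on costimulatory and adhesion receptors that set the threshold of activation, on cytokine receptors such as that for IL-7, and on factors such as EBF1 that switch on the B cell genes. Several of these genes are not private to lymphocytes. CD226 is also known from platelets, which gave it one of its older names, and IL7R and BLNK are also known from macrophages.

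Values are MAS5 signals, a linear array intensity that the authors scaled alike on all arrays. Differences are FOG1 ki/ki minus control in log2(signal + 16), where adding 16 damps the noise of dim probe sets and understates their change. The median signal of all probe sets lay between 7.75 and 12.2 on the control arrays and between 5.93 and 12.3 on the FOG1 ki/ki arrays, lowest on the 2 replicate 3 arrays, whose values were also deposited with more decimals than the rest. Background was read from 86 probe sets for olfactory, vomeronasal and taste receptors. Their 95th percentile, called the receptor limit below, was 3.01 to 5.33 across the arrays. Zfpm1 itself averaged a signal of 810 over the control arrays and 874 over the FOG1 ki/ki arrays (log2 difference 0.11, limma adjusted p = 0.999), so its level does not check the labels. Of 11260 genes tested with limma, 11 rose and 6 fell at an adjusted p under 0.05, and without any single array 1 to 2 genes passed.

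Of the 8 genes, 0 passed that test, where 0.151% of all genes tested did. With the replicate number as a block 1 passed, Cd28, where 0.835% of all genes did. Because the genes were picked from this comparison, nothing is read from either count. The signals of Cd28 and Cd226 were lower on all 3 FOG1 ki/ki arrays than on any control array, a separation seen for 4.93% of all genes tested. Nkg7 was the 1 gene of the 8 with all FOG1 ki/ki arrays above all controls, as were 6.32% of all genes tested. For the other 5 genes the groups overlapped. A lower signal in a culture can come from fewer cells of a type or from less RNA per cell, and these cannot be told apart here.

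**Figure D1:**
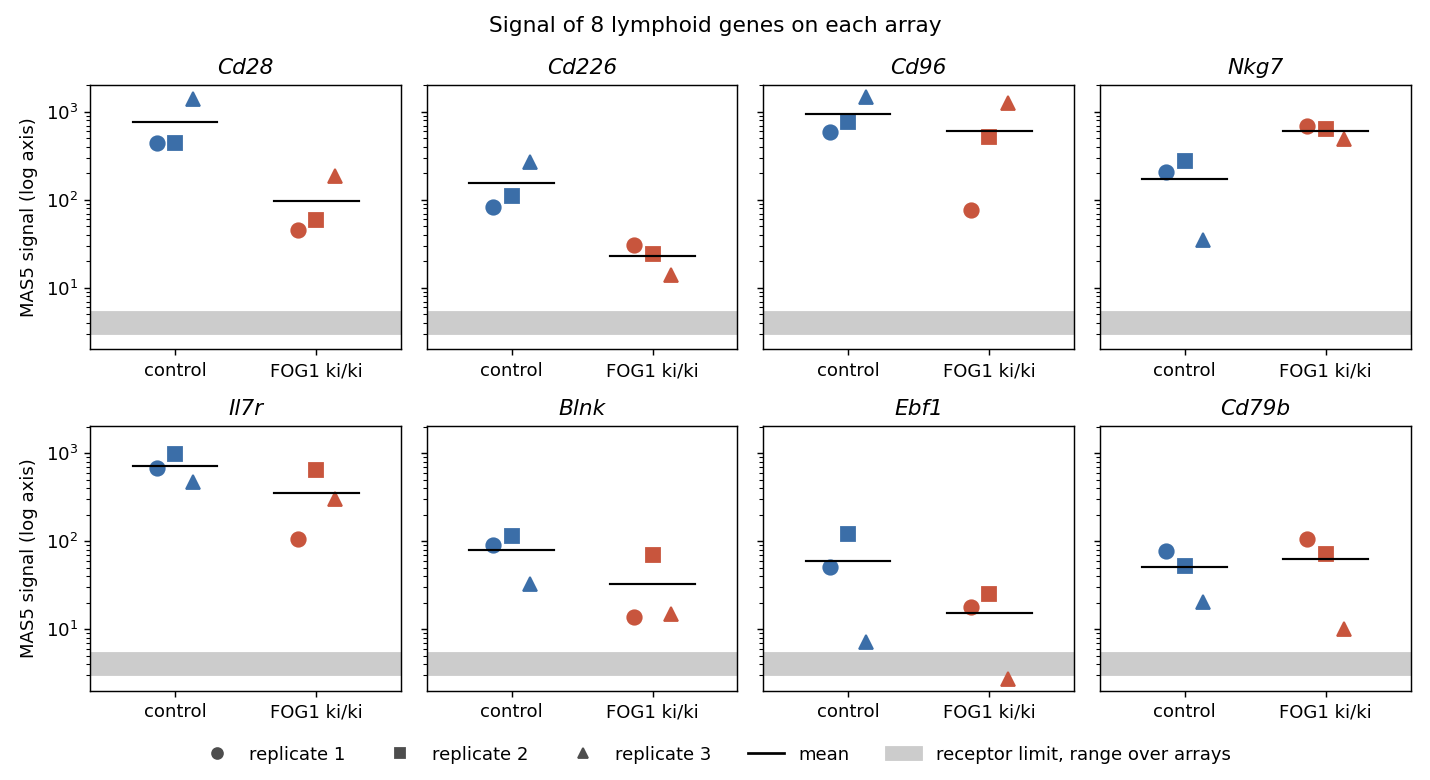
MAS5 signal (log axis) of each of the 8 genes on the 3 control (blue) and 3 FOG1 ki/ki (red) arrays, from the brightest probe set of each gene. Marker shape gives the replicate number, black lines give group means and the grey band gives the range of the receptor limit over arrays. The groups do not overlap for Cd28, Cd226 and Nkg7, and the Ebf1 value of FOG1 ki/ki replicate 3 (2.74) is the 1 point below its array's limit.

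The sequence just before the transcription start, from RefSeq (build GRCm38.p6), was searched for 5 of the 8 genes, as 6 windows since Ebf1 has 2. No window of Cd28, Cd226 or Cd79b was searched. Of the 6 windows 3 are shown: that of Nkg7, the gene higher in FOG1 ki/ki, and those of Cd96 and Blnk, a receptor and a signalling adaptor with lower means there. Each is the 250 bases before the start on the gene's own strand, and capitals mark every match to a searched word.
Nkg7: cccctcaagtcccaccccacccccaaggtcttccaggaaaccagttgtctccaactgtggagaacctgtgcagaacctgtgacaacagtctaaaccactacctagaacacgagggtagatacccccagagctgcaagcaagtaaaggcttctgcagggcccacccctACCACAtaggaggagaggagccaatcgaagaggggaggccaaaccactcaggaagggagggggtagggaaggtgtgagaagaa
Cd96: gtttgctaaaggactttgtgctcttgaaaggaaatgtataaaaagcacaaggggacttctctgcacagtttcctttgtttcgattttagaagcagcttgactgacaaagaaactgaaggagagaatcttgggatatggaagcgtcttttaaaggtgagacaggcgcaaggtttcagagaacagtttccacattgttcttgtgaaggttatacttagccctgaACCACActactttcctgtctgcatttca
Blnk: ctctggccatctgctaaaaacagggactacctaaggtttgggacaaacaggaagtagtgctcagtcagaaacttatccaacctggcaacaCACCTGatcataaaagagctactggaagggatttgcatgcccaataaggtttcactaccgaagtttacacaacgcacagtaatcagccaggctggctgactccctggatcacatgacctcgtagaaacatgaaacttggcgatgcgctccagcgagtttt
The windows are chr7:43436888-43437137 on the plus strand for Nkg7, chr16:46120249-46120498 on the minus strand for Cd96 and chr19:40994222-40994471 on the minus strand for Blnk. The search covered both strands for the GATA words AGATAA and AGATAG and their variants TGATAA and TGATAG, the RUNX word TGTGGT and the E-box words CAGCTG and CAGGTG. RUNX factors and E-box-binding proteins act in both lymphocytes and megakaryocytes or their precursors. No GATA word occurred in any of the 6 windows, which says only that these letters were not there, and 26.5% of 32851 promoter windows of the same length held one. The RUNX word stood 83 bases before the start in Nkg7, 28 in Cd96 and 12 in 1 Ebf1 window, and 14.0% of all windows held it. The marked word in Blnk, 160 bases before the start, is the reverse complement of an E-box word, and 27.7% of all windows held an E-box word. The Il7r window and the other Ebf1 window held none of the words, and no match overlapped another.

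Cd28 encodes the main costimulatory receptor of T cells, which binds CD80 and CD86 on antigen-presenting cells. Its brighter probe set (1437025_at) read 445, 439 and 1391 on control replicates 1, 2 and 3 and 45.1, 59.2 and 188 on FOG1 ki/ki replicates 1, 2 and 3. Control replicate 3, the FOG1+/+ culture, was the highest array, and the highest FOG1 ki/ki array was the one with the same number. Control arrays averaged 758 ± 548 and FOG1 ki/ki arrays 97.3 ± 78.6 (SD, n = 3 per group), which is -2.77 as a log2 difference. Within equal replicate numbers the log2 differences were -2.91, -2.60 and -2.79 for this probe set. On the signal scale, control exceeded FOG1 ki/ki 9.86-fold, 7.41-fold and 7.41-fold in the 3 pairs.

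The second Cd28 probe set (1417597_at) gave 85.9, 97.7 and 493 in controls and 6.3, 11 and 32.1 in FOG1 ki/ki. Replicate 3 was again the highest array of each group, and both probe sets separated the groups. Its log2 difference was -2.56, with pair differences of -2.19, -2.07 and -3.40, so the closeness of the 3 pairs in the brighter probe set was not shared by this one. The values of the 2 probe sets over the 6 arrays had a Pearson r of 0.98, as a description, since all 6 arrays carry both the group difference and the replicate numbers. All 3 FOG1 ki/ki values of this probe set lay above the receptor limit of their arrays, although 2 of the 3 were under a signal of 16.

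Cd226, also called DNAM-1, encodes an adhesion receptor of T cells, NK cells and platelets that binds CD155 and nectin-2. Its single probe set (1445388_at) read 83.9, 110 and 267 in controls and 31.0, 24.4 and 13.9 in FOG1 ki/ki. FOG1 ki/ki replicate 3 was the lowest array while control replicate 3 was the highest. The mean was 154 ± 98.8 against 23.1 ± 8.65 (SD, n = 3 per group), with a log2 difference of -1.99. The pairs differed by -1.09, -1.64 and -3.24. Without both arrays numbered 3 the difference was -1.37. All 3 FOG1 ki/ki signals lay above the receptor limit of their arrays, so the gene was dim but not at background there.

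Cd96, or Tactile, encodes a relative of CD226 on T and NK cells that binds the same ligand, CD155. Its probe set (1419226_at) read 596, 767 and 1478 in controls and 76.8, 518 and 1246 in FOG1 ki/ki. The groups overlapped, and in both the replicate 3 array was the highest. The mean was 947 ± 468 against 614 ± 590 (SD, n = 3 per group). The log2 difference of -1.17 came mostly from the first pair: the pairs differed by -2.72, -0.55 and -0.24, and leaving out FOG1 ki/ki replicate 1 gave -0.12, while leaving out replicate 3 of that group gave -2.01. Cd96 thus had the same sign as Cd226 in every pair while its largest pair difference was in number 1 and that of Cd226 in number 3.

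Nkg7 encodes a membrane protein of the cytotoxic granules of NK and T cells that takes part in granule release. Its probe set (1450753_at) read 205, 273 and 34.7 in controls and 686, 645 and 486 in FOG1 ki/ki. Control replicate 3 stood far below the other controls, while the FOG1 ki/ki arrays lay close together. The mean was 171 ± 123 against 605 ± 106 (SD, n = 3 per group), with a log2 difference of 2.06. The pairs differed by 1.67, 1.19 and 3.31, and without control replicate 3 the difference was 1.28. No array was near background for this gene.

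Il7r encodes the alpha chain of the IL-7 receptor, required for early lymphocytes and shared with the receptor for TSLP. Its brighter probe set (1448575_at) read 677, 976 and 473 in controls and 105, 643 and 304 in FOG1 ki/ki. FOG1 ki/ki replicate 2 exceeded control replicate 3, so the groups overlapped. The mean was 709 ± 253 against 351 ± 272 (SD, n = 3 per group), with a log2 difference of -1.24. The pairs differed by -2.51, -0.59 and -0.61, and without FOG1 ki/ki replicate 1 the difference was -0.60. A dimmer probe set (1448576_at) read 123, 122 and 48.2 in controls and 18.4, 78.7 and 26.0 in FOG1 ki/ki, with pair differences of -2.01, -0.54 and -0.61. Both probe sets thus placed the largest difference in pair 1.

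Among the B cell genes, Blnk encodes the adaptor that links the B cell receptor's kinases to phospholipase C. Its probe set (1451780_at) read 89.9, 116 and 32.5 in controls and 13.9, 69.9 and 14.7 in FOG1 ki/ki. The mean was 79.3 ± 42.5 against 32.8 ± 32.1 (SD, n = 3 per group), with a log2 difference of -1.03. The pairs differed by -1.82, -0.62 and -0.66, the same order of sizes as for Il7r. All 6 values were above the receptor limit, and 2 of the 3 FOG1 ki/ki values were under a signal of 16.

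Ebf1 encodes the transcription factor that commits precursors to the B lineage and is also known from stromal and fat cells. The brightest of its 5 probe sets (1416301_a_at) read 50.8, 119 and 7.23 in controls and 17.9, 24.9 and 2.74 in FOG1 ki/ki. Replicate 2 was the highest and replicate 3 the lowest array in both groups. The log2 difference was -1.004, with pair differences of -0.98, -1.72 and -0.31, and it was -0.41 without control replicate 2 and -1.68 without control replicate 3. The other 4 probe sets had mean signals of 1.72 to 13.2 in controls and 0.643 to 4.47 in FOG1 ki/ki, and they were left out of the test as too dim, while the other 10 of the 14 passed. Of these 4, 1457441_at was near background in both groups, with all 6 values at or below the receptor limit of the array, and 1448293_at in FOG1 ki/ki only. The other pair, 1416302_at and 1439789_at, passed the limit on 2 control arrays and 1 FOG1 ki/ki array each. All 5 probe sets had a lower value in FOG1 ki/ki in each of the 3 pairs, and they share the same 6 RNA samples.

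Cd79b encodes a signalling chain of the B cell receptor. Its probe set (1417640_at) read 78.2, 52.0 and 20.4 in controls and 106, 70.8 and 10.2 in FOG1 ki/ki. The mean was 50.2 ± 28.9 against 62.4 ± 48.5 (SD, n = 3 per group). The log2 difference of 0.08 was small beside the spread within groups, and the pairs differed by 0.37, 0.35 and -0.48. Its sign turned with a pseudocount of 1 (-0.02) and when control replicate 3 (-0.30), FOG1 ki/ki replicate 1 (-0.37) or FOG1 ki/ki replicate 2 (-0.12) was left out, and it reached 0.74 when FOG1 ki/ki replicate 3 was.

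**Figure D2:**
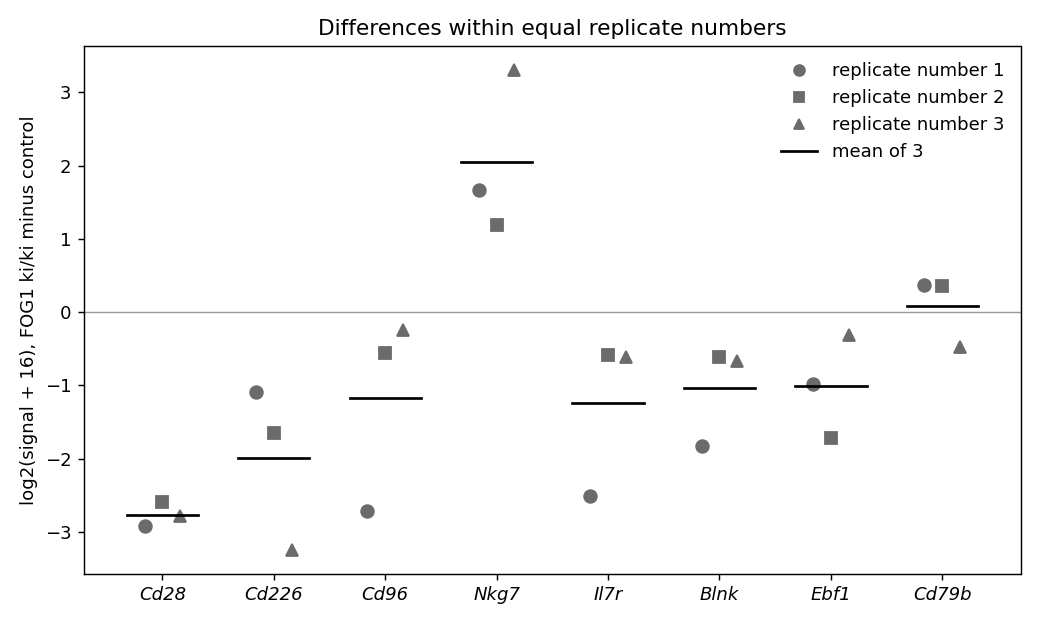
Difference in log2(signal + 16), FOG1 ki/ki minus control, within each replicate number (markers) and their mean (black lines) for the 8 genes. The 3 Cd28 pairs lie between -2.91 and -2.60, while Cd96 and Il7r are farthest below 0 in pair 1, Cd226 in pair 3 and Ebf1 in pair 2, and Cd79b lies on both sides of 0.

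Among the 8 genes themselves, the log2 values of Cd28 and Cd226 over the 6 arrays had a Pearson r of 0.86, and each ran opposite to Nkg7, at -0.94 and -0.92. Il7r and Blnk had an r of 0.89. These values describe arrays that carry the group difference by which the genes were chosen. With the group means removed, r was 0.37 for Cd28 and Cd226 and 0.82 for Il7r and Blnk. Against Nkg7 it was then -0.82 for Cd28 and -0.77 for Cd226. The genes with the most similar profiles over the 6 arrays, by Pearson r of log2(signal + 16) among all genes tested, differed between the 8. Such r values are the highest of 11259 and rest on 6 arrays that share groups and replicate numbers, so they only describe. For Cd28 they were Sytl4, a granule-docking protein of platelets, at 0.991, with Rnf19b at 0.990 and Ddx17 at 0.987. For Cd226 they were Hbp1 at 0.997, BC064078 at 0.995 and Tspan6 at 0.987. Sytl4 read 513, 552 and 1425 in controls and 112, 158 and 246 in FOG1 ki/ki.

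The profiles nearest to Il7r were those of the growth factor gene Igf1 (r = 0.996), the apolipoprotein gene Apoe (0.993) and the scavenger receptor gene Cd36 (0.993). Those nearest to Blnk were Tnfrsf1a, a TNF receptor (0.999), Gpr183 (0.996) and Mrc1, the macrophage mannose receptor (0.996). Apoe, for example, read 510, 956 and 403 in controls and 89.0, 616 and 252 in FOG1 ki/ki, the same order of arrays as Il7r except for 1 exchange of neighbours. For Nkg7 the nearest were Zfp568 (0.996), Nxt1 (0.994) and the glycine transporter gene Slc6a9 (0.993). For Cd96 they were Mgat1 (0.988), Flywch1 (0.981) and Atp5k (0.980), for Ebf1 Npdc1 (0.996), Map3k8 (0.992) and Lgr6 (0.992), and for Cd79b Zfp867 (0.998), Grap (0.998) and 2700038G22Rik (0.997). At r above 0.95 lay 24 genes for Cd96, 36 for Cd28, 66 for Il7r, 67 for Cd226, 86 for Nkg7, 124 for Ebf1, 134 for Blnk and 155 for Cd79b.

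Genes of the B, T and NK cell lists were found on both sides of the receptor limit. Of 22 B cell genes measured 7 lay above it on all 6 arrays and 3 on none, of 23 T cell genes 5 and 4, and of 21 NK and cytotoxic genes 7 and 6. The rest passed it on some arrays. On every array the limit lay below the median signal of all probe sets. Most probe sets therefore passed it, and passing it is not read here as expression. The genes named next were chosen after their values were seen. Above the limit on every array were the immunoglobulin heavy chain gene Ighm (14.7 to 196.9), the B cell inhibitory receptor gene Cd22 (10.8 to 123.2), the T cell coreceptor gene Cd4 (6 to 33.2), the T cell receptor chain gene Cd247 (4.76 to 11.4) and Prf1, which encodes the pore-forming protein of cytotoxic granules (64.8 to 247). Among the genes above it on no array, Pax5, the B cell identity factor, read 0.1 to 0.4 over the 6 arrays, and Rag1, a recombinase of antigen receptor genes, 0.1 to 0.9. Cd3g of the T cell receptor complex read at most 3.7, Gata3, a T cell factor, at most 1.6, the NK and T cell factor Tbx21 0.3 to 0.6 and the NK receptor gene Klrk1 at most 3.1. Cd3e (0.6 to 10.7) and the B cell receptor chain Cd79a (3.76 to 17.2) passed the limit on 4 and 5 arrays. Of the genes named as above the limit on every array, Cd247 alone was left out of the test as too dim. Lck was not analysed here. All 10 measured megakaryocyte markers were above the limit on every array, with a summed signal of 19610 to 25745 in controls and 17258 to 23222 in FOG1 ki/ki.

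Markers of other cells moved with some of the 8 genes, and their part in these differences was not tested. All 13 monocyte and macrophage markers measured were above the limit on every array. Their summed signal was 11235, 15242 and 8423 on control replicates 1, 2 and 3 and 4507, 11628 and 7717 on FOG1 ki/ki replicates 1, 2 and 3. It was lowest on FOG1 ki/ki replicate 1, where Il7r and Blnk were lowest too, and highest on control replicate 2, where both were highest. Adgre1, which encodes the macrophage antigen F4/80, read 448, 643 and 436 in controls and 49.8, 372 and 338 in FOG1 ki/ki. Of the 13 macrophage markers 12 had a lower and 1 a higher mean in FOG1 ki/ki, with 0 called by limma (with or without the replicate block), a median log2 difference of -0.74, and an unadjusted p under 0.05 for 2 of the 13, or 7 with the replicate block. Over all genes tested 44.9% had a lower mean, the median was 0.03, and 6.69% had such a p, or 18.4% with the block.

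Of the 13 mast cell and basophil markers measured, 9 were above the limit on all arrays. Another 2 (Mcpt4 and Mrgprb1) were at or below it on all 6. All 9 that were tested had higher means in FOG1 ki/ki, as did 6204 of all 11260 genes tested. The signals of all 13 summed to 3081, 3106 and 279 in controls and 6322, 5658 and 4884 in FOG1 ki/ki. This sum was lowest on control replicate 3, as was Nkg7. Fcer1a alone made up 33.4% to 80.1% of it. Without Fcer1a the sum ranged from 186 to 1190 in controls and from 972 to 3005 in FOG1 ki/ki, which overlap. Ms4a2, a chain of the IgE receptor, was the 1 of these genes that rose with the replicate block (log2 difference 2.77, limma adjusted p = 0.255, or 0.00902 with the block). The sum of 11 fibroblast and stromal markers, a list added after the values were seen, was 2341, 8631 and 439 in controls and 1990, 3956 and 254 in FOG1 ki/ki. Like Ebf1, it was highest in replicate 2 and lowest in replicate 3 of both groups. Sparc alone made up 20.1% to 51.5% of it. All 11 stromal markers had lower means in FOG1 ki/ki (median log2 difference -0.76), with 0 called by limma, with or without the block. Beside Cd28 and Cd226, whose groups did not overlap, the megakaryocyte sum was 19610, 25745 and 25590 in controls and 17258, 19233 and 23222 in FOG1 ki/ki, which do overlap. Within that list Tubb1, Gp6 and Gp9 were lower on every FOG1 ki/ki array than on any control array, and the other markers overlapped. Such a separation was seen for 4.93% of all genes tested. All 10 megakaryocyte markers had lower means in FOG1 ki/ki (median log2 difference -0.20), as did 44.9% of all genes tested. With the replicate block 1 of them, the collagen receptor gene Gp6, fell, where 0.835% of all genes tested were called in either direction. The 10 neutrophil markers measured had a median log2 difference of -0.13, with 3 higher, 7 lower and 0 called. Their signals summed to 13188, 15956 and 2774 in controls and 9337, 16406 and 3945 in FOG1 ki/ki, lowest in replicate 3 of both groups.

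**Figure D3:**
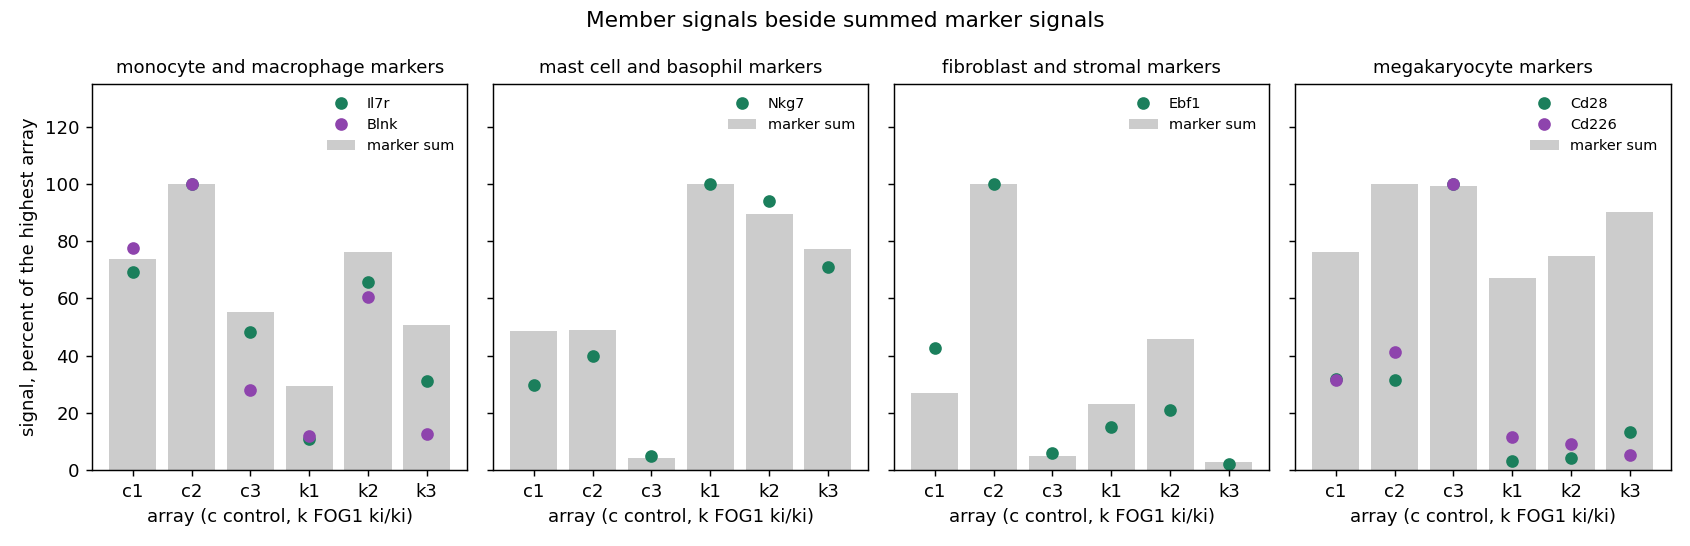
Signal on each array as a percent of the highest array, for genes of the 8 (coloured points) and for the summed signal of a marker list (grey bars), with c1 to c3 the control and k1 to k3 the FOG1 ki/ki replicates. Il7r and Blnk share their highest array (c2) and their lowest (k1) with the macrophage sum, Nkg7 shares both extremes with the mast cell sum (k1 and c3) and Ebf1 with the stromal sum (c2 and k3).

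Other lymphoid and pathway genes were taken from 8 lists written from textbook knowledge, which hold 129 genes beside the 8. Of these 117 were measured, 58 lay above the receptor limit on all 6 arrays and 63 passed the filter on dim probe sets. With limma 0 of the 63 rose or fell, with or without the replicate block. An unadjusted p under 0.05 was found for 13 of the 63, against 753 (6.69%) of all 11260 genes, and with the block for 22, against 2076 (18.4%). Their median log2 difference was -0.12, with 25 higher and 38 lower, where 44.9% of all genes tested were lower. The lists were written with earlier results of these data known, so nothing is read from these counts.

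**Figure D4:**
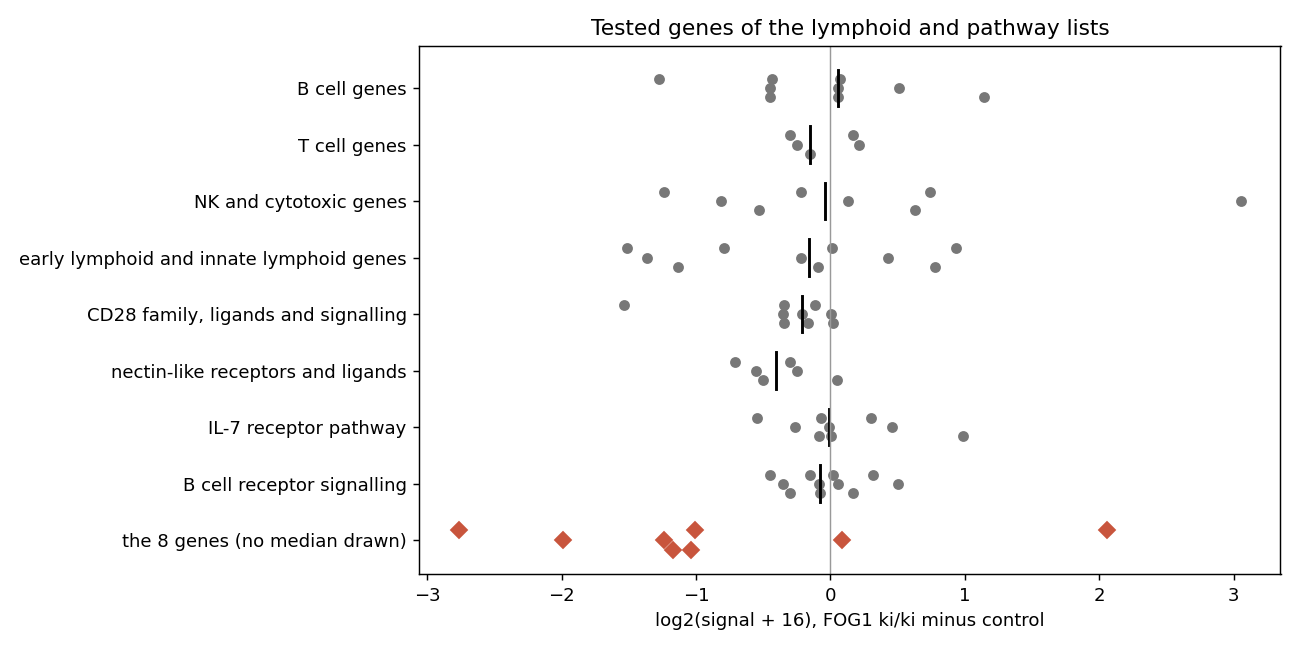
Difference in log2(signal + 16), FOG1 ki/ki minus control, for each tested gene of the 8 lymphoid and pathway lists (grey points, list medians as black lines), with the 8 genes (red diamonds) on the last line. The list medians lie between -0.40 and 0.05, and none of the grey points passed limma's test.

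Of the B cell genes 9 of 22 measured were tested (median 0.05). Bach2, a repressor that shapes B cell fate, read 23.3, 84.1 and 73.3 in controls and 14.3, 15.9 and 9.59 in FOG1 ki/ki (log2 difference -1.28, limma adjusted p = 0.45), and the scaffold gene Bank1 had a log2 difference of 1.14 (limma adjusted p = 0.512). Fcrla (0.51) and Vpreb1 (-0.44) followed. Of the T cell genes 5 of 23 were tested (median -0.15), with Lat at 0.21, Cd27 at -0.30, Cd4 at -0.25 and Thy1 at 0.17. Lat, an adaptor that megakaryocytes share with T cells, made up 85.9% to 93.5% of the summed signal of this list on every array.

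Of the NK and cytotoxic genes 8 of 21 were tested (median -0.04). Gzmb, a granule protease also made by mast cells, read 327, 189 and 5.96 in controls and 510, 923 and 1785 in FOG1 ki/ki (log2 difference 3.06, limma adjusted p = 0.485). Control replicate 3 was again the lowest array, as for Nkg7. Klrg1 had a log2 difference of 0.63 and the chemokine gene Ccl5 one of -1.24, while the cysteine protease gene Ctsw had one of -0.81. Of the early and innate lymphoid genes 10 of 16 were tested (median -0.16). The zinc finger factor gene Zbtb16 read 85.5, 104 and 169 in controls and 31.3, 49.1 and 27.3 in FOG1 ki/ki (log2 difference -1.36, limma adjusted p = 0.295). Sox4 (-1.51), Rora (-1.13) and Id2 (0.78) did not pass either.

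The partners of the 8 genes were measured too. Of the CD28 family, its ligands and signalling genes, 9 of 13 were tested (median -0.21). Grap2, an adaptor of T cells and platelets, read 91.1, 52.1 and 298 in controls and 14.3, 39.4 and 40.4 in FOG1 ki/ki (log2 difference -1.53, limma adjusted p = 0.62), and Vav1 (-0.35), Prkcq (-0.35) and Cd86 (-0.21) differed less. Of the nectin-like receptors and ligands around CD226 and CD96, 6 of 9 were tested (median -0.40), with Fyn at -0.25, Crtam at -0.71, Cadm1 at -0.50 and Nectin3 at -0.55. Pvr, which encodes the CD155 ligand of both receptors, had a log2 difference of -0.30, and it is named after its value was seen.

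Of the IL-7 receptor pathway 9 of 11 genes were tested (median -0.01). Cish, a feedback inhibitor induced by STAT5, read 254, 164 and 175 in controls and 464, 315 and 440 in FOG1 ki/ki (log2 difference 0.99, limma adjusted p = 0.361). Stat3 was at -0.54, Stat5a at 0.30 and Stat5b at -0.26. Of the B cell receptor signalling genes 11 of 13 were tested (median -0.08), and all 11 were above the receptor limit on every array. Vav1 (-0.35), Bcl10 (-0.30), Pik3ap1 (0.50) and Vav2 (0.32) had the smallest p of that list, and none passed.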

How the data were processed

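Expression was measured on 6 arrays of cultured mouse megakaryocytes, 3 control and 3 FOG1 ki/ki. The authors deposited 1 MAS5 signal per probe set, a linear intensity, and MAS5 is named in the submitters' processing notes. No MAS5 version or genome build is given in the sources used here. The 2% trimmed mean of every array was 150, so arrays had been scaled to one target, and a change in total RNA per cell cannot be seen. Precision is limited by the small number of arrays.

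The annotation gave 1 gene symbol for 34958 of the 45101 probe sets, several for 932 and none for 9211; 64 control probe sets were left out. Gene names came from the platform annotation, with the Entrez identifiers of 34754 probe sets found in RefSeq (GRCm38.p6). Signals were analysed as log2(signal + 16). The lower 50% of probe sets by mean log2 value were left out, and each gene was taken from its brightest remaining probe set. Groups were compared with limma 3.58.1 in R 4.3.3 (lmFit, eBayes with a trend, Benjamini-Hochberg over 11260 genes, threshold 0.05). The fit without the block was also run on simulated arrays with independent noise and limma's own variances. That run cannot check how the test behaves when arrays of the same replicate number deviate together. Other steps used Python 3.11.15 with matplotlib 3.10.9, numpy 2.4.6, pandas 2.3.3 and scipy 1.17.1. A probe set was near background in a group when all 3 signals were at or below the 95th percentile of 86 receptor probe sets on the same array.

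Replicate numbers were read as pairing, because arrays with the same number deviated together from their group means (Pearson r over probe sets 0.400, 0.611 and 0.571); deviations within a group sum to 0, which builds in part of the contrast with other numbers. The fit without the block remained the main one. The 8 genes and all lists were chosen with earlier results of these data known. Named were the 8 genes, the 3 nearest profiles of each, up to 4 genes per lymphoid or pathway list by smallest p, and Zfpm1. Further genes of these lists and marker genes of other cells were named after their values were seen. Settings varied were the pseudocount, scaling, filter, probe set choice, block, left-out arrays and the background limit.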

Additional observations from a re-analysis of the deposited data

How the results depend on the processing

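Over all genes, 17 passed limma's test, 15 to 19 with a pseudocount of 64, quantile normalization or median centring, and 12 with the mean over a gene's probe sets. With a pseudocount of 1 there were 8, with no filter on dim probe sets 1, in the brightest 25% of probe sets 3, and with the replicate block 94. Leaving out 1 array left 1 to 2 genes, and leaving out both arrays of number 1, 2 or 3 left 0. Of the listed lymphoid genes 0 passed in each of the 17 alternatives. Of the 8 genes 6 had a lower mean in FOG1 ki/ki, 6 or 7 in the alternatives that kept all 8, and 3 of the 4 that remained in the brightest 25% of probe sets; leaving out 1 array gave 6 to 7. The sign that turned was that of Cd79b. Of 132 alternative values of the 8 differences, 2 moved by at least 1 within-group SD, both for Cd226: -1.23 with a pseudocount of 64 and -1.37 without both arrays numbered 3. This count is no measure of stability. With 3 arrays per group, leaving out 1 array cannot move a difference by that much. The replicate block and the filter leave a difference unchanged by construction. Leaving out 1 array moved Cd28 between -3.30 and -2.23, Cd226 between -2.30 and -1.55, Nkg7 between 1.28 and 2.54, Il7r between -1.82 and -0.60, Blnk between -1.54 and -0.74, Ebf1 between -1.68 and -0.41, Cd96 between -2.01 and -0.12, and Cd79b between -0.37 and 0.74. Counted once per group, 3 probe-set groups were near background with the 95th percentile of the receptor probe sets, 2 with the 90th, 5 with the 99th and 5 with a fixed signal of 16. Low signal limits what the arrays show of Ebf1, for which 4 of 5 probe sets did not pass the filter on dim probe sets. The causes of these changes were not tested.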
